A study of Homo sapiens with 12 samples.

Results

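The comparison described here is knockdown of PADI2 in steady-state polyadenylated RNA of T47D-MTVL cells. It used 4 of the 12 libraries of the series, 2 transfected with a control siRNA (siCtrl) and 2 with an siRNA against PADI2 (siPADI2). Genes entered when both libraries of at least one group held at least 1 CPM, the count scaled to library depth, which kept 13552 of 57820 annotated genes. Of these, 12734 passed in both groups, 305 in siCtrl only and 513 in siPADI2 only. T47D-MTVL is a human luminal breast carcinoma line with a single luciferase reporter copy behind the MMTV promoter. The cells of these libraries were kept in charcoal-stripped serum without phenol red and transfected by lipofection. The chromatin-associated RNA of the same line, again 2 siCtrl and 2 siPADI2 libraries without progesterone, served as a second readout. Cell cycle, hormone response and stress genes were left aside in favour of other gene classes.

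PADI2 is a calcium-dependent peptidylarginine deiminase. It converts arginine residues of proteins, among them histones and the C-terminal domain of RNA polymerase II, to citrulline. Poly(A) RNA-seq reads the mature transcripts that accumulate in the cell, so a level reflects synthesis and decay together, whereas chromatin RNA is enriched in transcripts that are still attached to their template. Motile cilia, which feature below, are built from an axoneme of doublet microtubules with dynein arms and radial spokes. In multiciliated cells their genes are switched on by GEMC1 and multicilin with E2F factors, and then by FOXJ1 and RFX factors. RFX factors bind a promoter element called the X-box.

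The sequences printed here, of microRNAs and of promoters of cilium genes, came from RefSeq (GRCh38.p14). CDC20B is the host gene of the miR-449 family, which shares its seed with miR-34 and is known for its role in multiciliated cells. The capitals mark the seed, bases 2 to 8. Those of miR-449a (chr5:55170586-55170607, minus strand), miR-449b-5p (chr5:55170706-55170727, minus strand) and miR-34a-5p (chr1:9151735-9151756, minus strand) were identical, and miR-449c-5p (chr5:55172313-55172337, minus strand) carried the same letters 1 base further along, as did miR-34b-5p (chr11:111512950-111512972, plus strand).
miR-449a: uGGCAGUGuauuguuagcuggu
miR-449b-5p: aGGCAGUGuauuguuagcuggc
miR-34a-5p: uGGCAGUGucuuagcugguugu
miR-449c-5p: uAGGCAGUguauugcuagcggcugu
miR-34b-5p: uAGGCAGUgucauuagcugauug

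Promoters, taken as 250 bases before to 50 after a gene's start, were searched for the X-box half-site GTTGCCA on both strands (TGGCAAC on the other strand). The word was in 1128 of 27305 RefSeq promoters (4.13%) and in 381 of 10302 promoters of genes tested (3.70%). It was in 15 of 63 promoters of motile axoneme genes tested (23.8%) and in 10 of 37 of the intraflagellar transport and BBSome genes (27.0%). Among axoneme genes it was in 11 of 43 promoters of those that rose (25.6%) and in 3 of 13 of those not called (23.1%), so the share was close in both. Among intraflagellar transport and BBSome genes it was in 5 of 21 that rose (23.8%) and in 5 of 13 not called (38.5%). The 6 windows below belong to the genes with the largest log2 fold changes among the 12 axoneme and regulator genes that rose and hold the word. They lie in GRCh38.p14, TEKT1 at chr17:6831751-6831797 (- strand), DNAH12 at chr3:57544415-57544461 (- strand), MCIDAS at chr5:55227403-55227449 (- strand), CFAP126 at chr1:161367876-161367922 (- strand), RSPH4A at chr6:116616408-116616454 (+ strand) and DNAH2 at chr17:7717706-7717752 (+ strand). Each is written 5′ to 3′ along the gene with the half-site in capitals and up to 20 bases on each side. A match is a description of these letters and not a shown binding site.
TEKT1: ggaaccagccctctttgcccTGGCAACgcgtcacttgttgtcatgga
DNAH12: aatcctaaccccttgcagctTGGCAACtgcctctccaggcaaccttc
MCIDAS: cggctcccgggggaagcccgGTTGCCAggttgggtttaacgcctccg
CFAP126: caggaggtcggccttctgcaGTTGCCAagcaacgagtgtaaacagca
RSPH4A: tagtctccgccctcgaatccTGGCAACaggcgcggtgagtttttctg
DNAH2: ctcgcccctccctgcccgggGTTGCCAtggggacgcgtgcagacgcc

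The poly(A) libraries held 44318629 and 132764704 counts in siCtrl and 112539069 and 127466753 in siPADI2. The chromatin libraries held 7040541 and 6667627 counts in siCtrl and 2798723 and 2720080 in siPADI2, so the knockdown libraries were the shallower ones there. All 147 chromatin RNA calls among the 378 genes chosen for naming were lost when either siCtrl chromatin library was left out, so calls in that fraction are given as a second reading with this limit. The first principal component of the poly(A) libraries carried 94.5% of the variance and separated siPADI2 from siCtrl. The luminal markers KRT8, KRT18, KRT19, EPCAM, CDH1 and GATA3 were detected in all 4 libraries at 161.5 CPM or more. Of 20 markers of other cell types 6 passed the filter, of which 3 rose and 2 fell. COL1A1 was at 59.7 to 73.1 CPM, and the adipocyte genes ADIPOQ and PLIN1 went opposite ways, from 4.67 and 4.21 to 0.42 and 0.571 CPM (log2 fold change −3.14 ± 0.19) and from 0.602 and 0.549 to 1.55 and 1.97 CPM (log2 fold change 1.64 ± 0.21). KRT5 and HBB were at 0 and PTPRC, CD3E and ALB were below 0.05 CPM in every library. The 100 most abundant genes took 20.1% of counts in each siCtrl library and 15.8% and 15.6% in the siPADI2 libraries. Nothing in the labels tells whether replicate libraries derive from independent cultures, and the p-values measure the spread between these libraries only. In bulk RNA, fewer cells of a type and less RNA per cell cannot be told apart.

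PADI2 itself (chromosome 1) was at 24.1 and 22.7 CPM in siCtrl and 1.82 and 1.88 CPM in siPADI2. The 2 groups did not overlap, and the transcript fell by 3.66 on the log2 scale (log2 fold change −3.66 ± 0.12, adjusted p = 1.53e-24, edgeR quasi-likelihood test with Benjamini-Hochberg adjustment). Its chromatin RNA was lower as well, at a log2 fold change of −1.60 (adjusted p = 5.28e-09). CPM values throughout are scaled by trimmed mean of M-values (TMM), pairs of values are the 2 libraries of a group, and errors of fold changes are standard errors. PADI3, another member of the family, fell from 27.1 and 25.7 to 11.5 and 10.6 CPM (log2 fold change −1.25 ± 0.10), and its chromatin RNA was at −1.24 (adjusted p = 0.000116). PRMT6, an arginine methyltransferase of histone H3, rose from 19.8 and 21 to 51.1 and 49.5 CPM (log2 fold change 1.30 ± 0.09). Of the 16 PRMT and arginine-modifying genes tested 3 rose (18.75%) and 6 fell (37.5%), PADI2 included, or 5 and 4 when scaled by total counts. Of all genes tested 33.7% rose and 32.6% fell.

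Knockdown was followed by changes in about as many genes upward as downward. At an adjusted p under 0.05, 4570 genes rose (33.7%) and 4421 fell (32.6%), and the median log2 fold change over all genes tested was 0.00. Changes of at least 2-fold were called in 804 genes upward (5.93%) and 983 downward (7.25%). With libraries scaled by total counts alone, all log2 values moved up by a median of 0.19 and the share of calls that were higher went from 50.8% to 68.2%. Directions below are therefore relative to the TMM-scaled median, and the total-count values stand beside each gene class whose balance they change. The median log2 fold change also varied with transcript properties. With genes divided into 10 equal bins, it was 0.13 in the bin of lowest GC content, −0.11 in the bin of shortest and 0.13 in that of longest exonic length, and −0.18 in the bin of highest CPM. The part of these gradients in the class differences below was not tested.

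**Figure D1:**
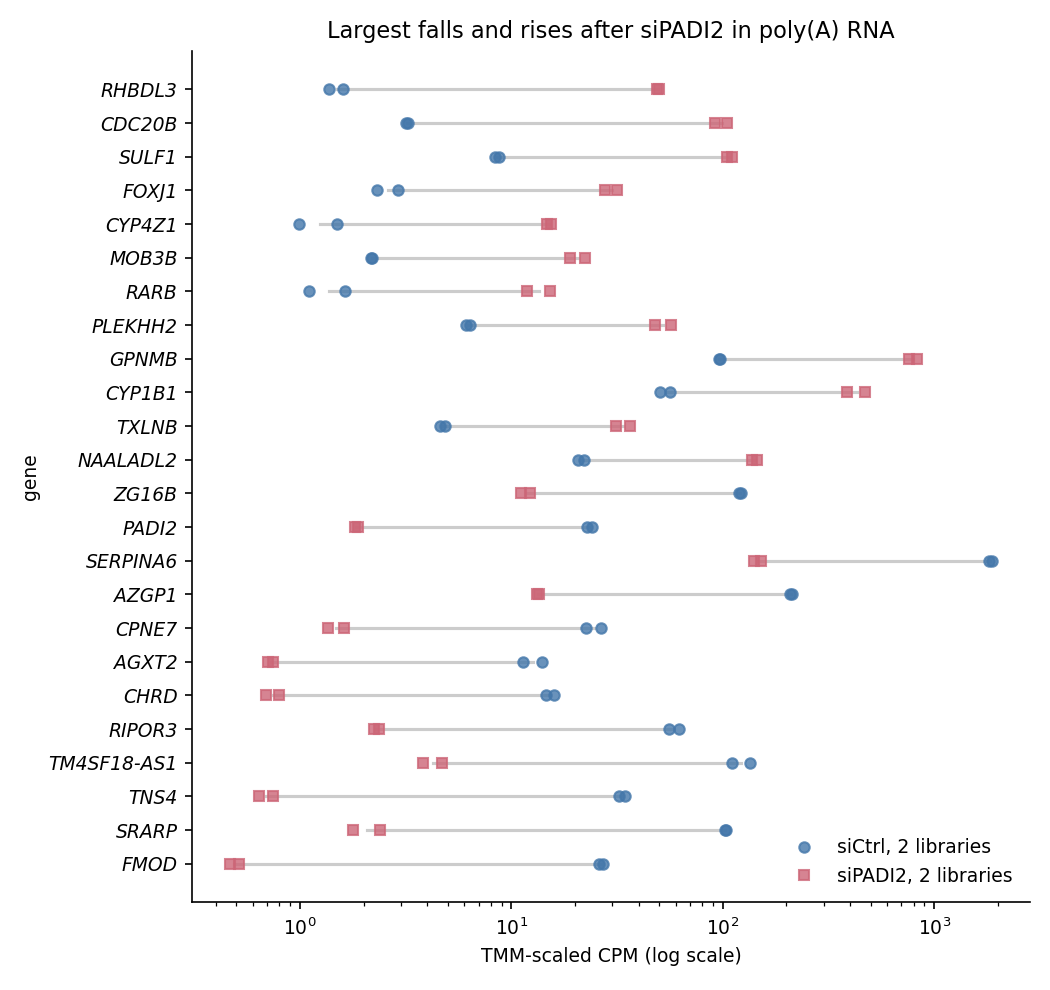
CPM of the 12 genes with the largest falls and the 12 with the largest rises, among genes called whose groups do not overlap and whose mean CPM is at least 10 in the higher group (log axis; circles, the 2 siCtrl libraries; squares, the 2 siPADI2 libraries; grey lines join group means). The libraries of a group lie close together beside the distance between groups, from RHBDL3 at the top to FMOD at the bottom.

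The largest rises were led by genes that siCtrl cells held at a few CPM. RHBDL3, a rhomboid-family gene, was at 1.37 and 1.61 CPM in siCtrl and 48.8 and 50.1 CPM in siPADI2. The groups were far apart (log2 fold change 5.01 ± 0.13, adjusted p = 1.89e-28), and its chromatin RNA was lower after siPADI2, at −0.77 (adjusted p = 0.00607), a call lost with DESeq2 and with total counts. CDC20B was at 3.16 and 3.26 CPM in siCtrl and 105 and 92.1 CPM in siPADI2 (log2 fold change 4.94 ± 0.11, adjusted p = 2.6e-29), and its chromatin RNA rose too, at 1.29 (adjusted p = 2.79e-08). SULF1, an extracellular heparan sulfate 6-O-endosulfatase, rose from 8.75 and 8.38 to 110.1 and 105 CPM (log2 fold change 3.65 ± 0.10). The fatty acid hydroxylase gene CYP4Z1 rose from 0.988 and 1.5 to 15.4 and 14.7 CPM (log2 fold change 3.50 ± 0.15), and CYP1B1, which oxidises estrogens and polycyclic aromatic compounds, from 50.7 and 56.6 to 388 and 473 CPM (log2 fold change 3.00 ± 0.10). RARB, a retinoic acid receptor, rose from 1.11 and 1.64 to 15.2 and 11.9 CPM (log2 fold change 3.21 ± 0.16), and MOB3B, a member of the MOB kinase activator family, from 2.17 and 2.19 to 18.9 and 22.2 CPM (log2 fold change 3.23 ± 0.13). PLEKHH2, TXLNB and NAALADL2 rose by 3.06, 2.83 and 2.73 on the log2 scale.

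Counted by the CPM gained, the first was GPNMB, a transmembrane glycoprotein of endosomes and lysosomes, which rose from 96.6 and 96.3 to 829 and 756 CPM (log2 fold change 3.04 ± 0.09). CRISP3, a secreted cysteine-rich protein, rose from 241 and 280.0 to 988 and 919 CPM (log2 fold change 1.87 ± 0.09). GFPT1, the rate-limiting enzyme of the hexosamine pathway, rose from 203 and 210.2 to 831 and 759.9 CPM (log2 fold change 1.95 ± 0.09). SUCO and NPEPPS, a cytosolic aminopeptidase, rose by 1.94 and 1.30 on the log2 scale, and SQSTM1, the autophagy receptor p62, by 0.84.

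The largest falls included secreted, matrix and adhesion genes. FMOD, a collagen-binding proteoglycan, was at 27.2 and 25.9 CPM in siCtrl and 0.512 and 0.468 CPM in siPADI2 (log2 fold change −5.76 ± 0.14, adjusted p = 1.89e-28). SRARP was at 103 and 102 CPM in siCtrl and 2.38 and 1.78 CPM in siPADI2 (log2 fold change −5.63 ± 0.12, adjusted p = 9.48e-28), and TNS4, a focal adhesion tensin, at 34.6 and 32.2 CPM in siCtrl and 0.638 and 0.746 CPM in siPADI2 (log2 fold change −5.58 ± 0.14, adjusted p = 1.13e-28). For these 3 genes the lowest siCtrl library stood far above the highest siPADI2 library. In chromatin RNA, TNS4 was at −1.28 (adjusted p = 8.84e-07), FMOD at −0.82 (adjusted p = 0.0497) and SRARP at −0.40 (adjusted p = 0.256). SRARP was not called, and the FMOD call was lost with DESeq2 and with total counts. The antisense transcript TM4SF18-AS1 fell from 134 and 110.1 to 4.7 and 3.8 CPM (log2 fold change −4.85 ± 0.12), with its chromatin RNA not called at 0.56 (adjusted p = 0.268). RIPOR3 fell from 61.9 and 56 to 2.23 and 2.37 CPM (log2 fold change −4.67 ± 0.11), and its chromatin RNA was at −2.00 (adjusted p = 3.16e-15). CHRD, the BMP antagonist chordin, fell from 15.9 and 14.5 to 0.688 and 0.797 CPM (log2 fold change −4.35 ± 0.15). AGXT2 and CPNE7 fell by 4.10 and 4.04 on the log2 scale.

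By CPM lost, PIP, an apocrine secretory protein, led with a fall from 3901 and 4961 to 532 and 537 CPM (log2 fold change −3.05 ± 0.11). ACTB, the cytoplasmic beta-actin gene often used as a reference, fell from 5924 and 4862 to 1908 and 1512 CPM (log2 fold change −1.66 ± 0.12), and its chromatin RNA fell as well, at −1.07 (adjusted p = 0.00427). MGP, an inhibitor of calcification, fell from 4323 and 4072 to 1086 and 1003 CPM (log2 fold change −2.01 ± 0.09), and the prolactin receptor gene PRLR from 3611 and 3482 to 509 and 577 CPM (log2 fold change −2.71 ± 0.10). The mitochondrially encoded MT-CYB fell from 5912 and 6073 to 2711 and 2674 CPM (log2 fold change −1.15 ± 0.09) and MT-ATP6 from 3639 and 4031 to 1227 and 1222 CPM (log2 fold change −1.65 ± 0.09). Both were higher in chromatin RNA after siPADI2, at 1.55 (adjusted p = 0.000977) and 1.62 (adjusted p = 8.82e-05). Mitochondrial transcripts are not made on nuclear chromatin, so these values do not read transcription there. How this RNA came into the fraction was not tested. Mitochondrially encoded genes took 5.68% and 6.14% of the poly(A) counts of the genes tested in siCtrl and 4.62% and 4.69% in siPADI2.

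Genes of luminal secretory cells had the largest share of falls among the gene lists examined. Of 35 listed genes 19 were tested, 17 fell (89.5%) and 1 rose (5.26%), against 32.6% and 33.7% of all genes tested. The median log2 fold change was −1.81, and 14 of the falls were at least 2-fold. This list was drawn up with earlier results of these libraries known, so its direction is not independent evidence. With total counts the same number, 17, fell and 2 rose. SERPINA6, corticosteroid-binding globulin, fell from 1816 and 1871 to 141 and 152 CPM (log2 fold change −3.66 ± 0.10). AZGP1, zinc-alpha-2-glycoprotein, fell from 209 and 212 to 13.2 and 13.5 CPM (log2 fold change −3.98 ± 0.09), and CLEC3A, a C-type lectin gene named after its value was seen, from 226 and 249 to 22.6 and 23.7 CPM (log2 fold change −3.36 ± 0.09). Outside the list, the secreted lectin gene ZG16B fell from 121 and 119.8 to 12.3 and 11.2 CPM (log2 fold change −3.37 ± 0.09). PTHLH, the parathyroid hormone-related protein gene and the only member that rose, went from 0.554 and 0.492 to 1.15 and 1.01 CPM (log2 fold change 1.07 ± 0.22), and AGR3 was not called at 0.14. In chromatin RNA 9 of these 19 genes fell and 2 rose, beside 3280 and 807 of the 13509 genes tested in both fractions. Over all 41176 genes tested in chromatin RNA, 10.0% were higher and 18.6% lower.

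**Figure D2:**
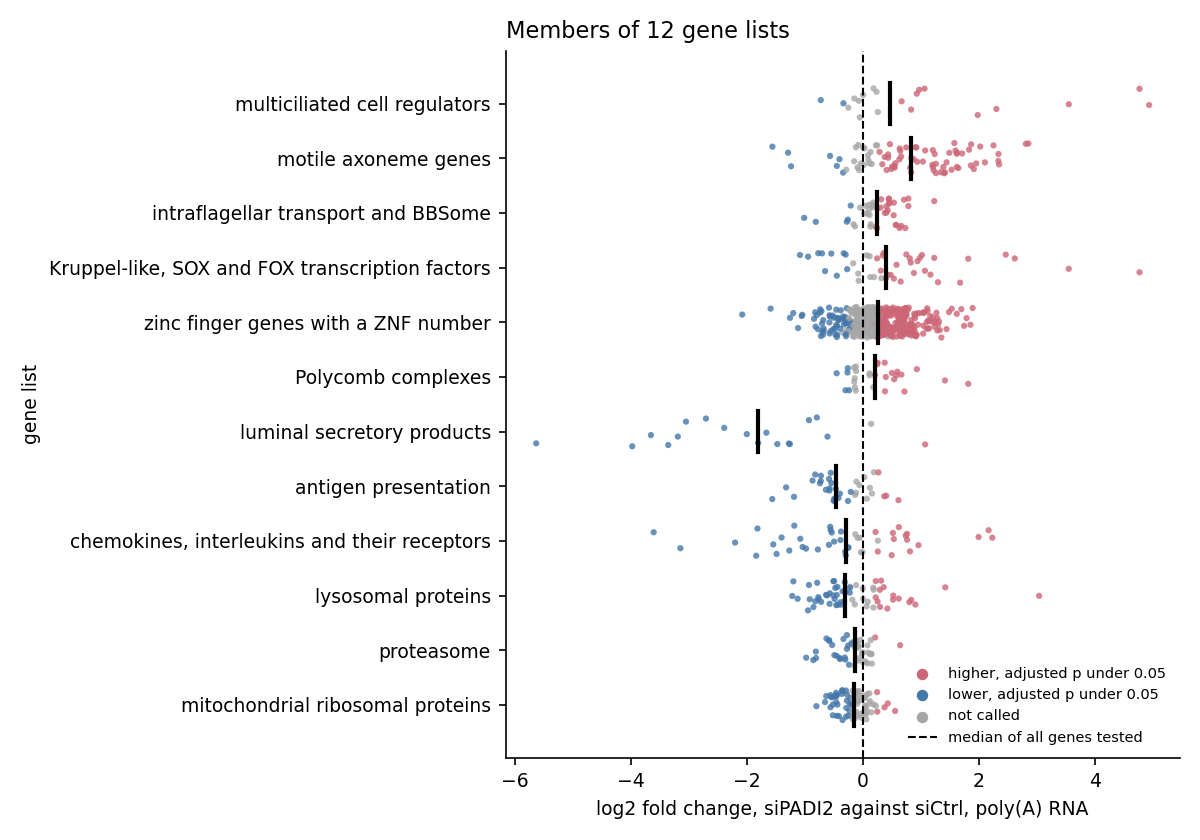
Log2 fold changes in poly(A) RNA of the tested members of 12 gene lists (points, one per gene, spread vertically at random; black bars, list medians; dashed line, median of all genes tested). Axoneme genes extend to the right with a median of 0.82 (0.50 over the 62 that passed the filter in both groups), whereas luminal secretory genes lie to the left at −1.81.

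Most of the motile cilium genes tested rose. Like the other lists, the cilium lists were chosen with earlier results of these libraries known, so their direction is not independent evidence. Of 122 motile axoneme genes listed 84 were tested, of which 60 rose and 7 fell, with a median log2 fold change of 0.82, and 36 of the rises were at least 2-fold. Because 22 of the 84 passed the filter in one group only, those could enter only through the group where they are higher. TEKT1 and DNAH12 were among them and passed in siPADI2 only. Among the 62 that passed in both groups 39 rose and 6 fell, with a median of 0.50, against 32.8% and 32.5% of all 12734 such genes. The levels stayed low: TEKT1, a tektin of the doublet microtubules, was at 0.265 and 0.25 CPM in siCtrl and 1.79 and 1.8 CPM in siPADI2, and DNAH12, an inner dynein arm heavy chain, rose from 0.241 and 0.178 to 1.04 and 0.944 CPM (log2 fold change 2.34 ± 0.28). CFAP300, which takes part in dynein arm assembly, was at 6.51 and 7.15 CPM in siCtrl and 27.9 and 25.3 CPM in siPADI2 (log2 fold change 1.95 ± 0.11, adjusted p = 6.23e-18). AK7, a ciliary adenylate kinase, rose from 3.04 and 3.34 to 10.3 and 9.49 CPM (log2 fold change 1.62 ± 0.13), and CFAP54, a central apparatus protein, from 1.42 and 2.07 to 5.17 and 5.75 CPM (log2 fold change 1.58 ± 0.16). RSPH4A, a radial spoke head protein, rose from 1.42 and 1.53 to 4.93 and 4.85 CPM (log2 fold change 1.71 ± 0.16).

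Among the 7 that fell, CETN2, a centrin of centrioles, went from 65.3 and 66.5 to 22.9 and 21.8 CPM (log2 fold change −1.56 ± 0.09), and CFAP20 from 20.3 and 20.1 to 8.67 and 7.83 CPM (log2 fold change −1.29 ± 0.11). DNAH5, an outer dynein arm heavy chain, fell from 11.5 and 9.9 to 8.48 and 8.31 CPM (log2 fold change −0.34 ± 0.12). In chromatin RNA 15 of the 84 axoneme genes were higher and 15 lower, beside 807 and 3280 of the 13509 genes tested in both fractions. CFAP300 was at −0.10 (adjusted p = 0.771) and AK7 at 0.23 (adjusted p = 0.463) in that fraction, neither called, while CFAP54 was higher at 0.90 (adjusted p = 0.000644).

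Several regulators of multiciliated cells rose as well. FOXJ1, the forkhead factor of motile ciliogenesis, was at 2.92 and 2.32 CPM in siCtrl and 31.8 and 27.8 CPM in siPADI2 (log2 fold change 3.55 ± 0.13, adjusted p = 2.15e-23), with no overlap between groups. Its chromatin RNA was lower, at −0.78 (adjusted p = 0.00559), a call lost with DESeq2 and with total counts. MCIDAS, which encodes multicilin, was at 2.77 and 2.65 CPM in siCtrl and 14.3 and 12.3 CPM in siPADI2 (log2 fold change 2.30 ± 0.13, adjusted p = 1.06e-17), and its chromatin RNA was not called, at 0.19 (adjusted p = 0.591). The forkhead gene FOXN4 rose from 0.169 and 0.145 to 4.27 and 4.07 CPM (log2 fold change 4.77 ± 0.24), named here after its value was seen. The centriole duplication genes PLK4 and CEP152 and the ciliary factor RFX3 rose by 1.06, 0.97 and 0.93 on the log2 scale. RFX5, which acts on MHC class II promoters, fell from 106 and 106 to 61.2 and 67.1 CPM (log2 fold change −0.73 ± 0.08), and RFX2, TP73 and MYB were not called, at 0.26, −0.25 and 0.00. In all, 10 of 20 regulators tested rose (50%) and 2 fell (10%), against 33.7% and 32.6% of all genes tested (13 and 1 with total counts). FOXN4 passed the filter in siPADI2 only. Among the 19 that passed in both groups 9 rose and 2 fell, with a median log2 fold change of 0.26, against 0.46 over all 20. Their chromatin RNA was higher in 2 of the 20 and lower in 7, beside 807 and 3280 of the 13509 genes tested in both fractions.

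The genes next to CDC20B on chromosome 5 were examined because of its size of change and not by the rule for named genes. In hg19, the build of the count tables, CDC20B spans chr5:54408799-54469005 on the minus strand. GPX8, a glutathione peroxidase encoded within it on the other strand, rose from 90.1 and 103 to 156 and 149.5 CPM (log2 fold change 0.66 ± 0.08). MCIDAS and CCNO, a cyclin-like gene needed for multiciliogenesis, follow within the same region, and CCNO rose from 20.4 and 18.7 to 84.6 and 69 CPM (log2 fold change 1.98 ± 0.10). The divergent transcript CCNO-DT rose from 0.53 and 0.468 to 1.46 and 1.37 CPM (log2 fold change 1.53 ± 0.22). Beyond them DHX29, an RNA helicase of translation, was called lower, from 101 and 113 to 91.7 and 95 CPM (log2 fold change −0.19 ± 0.08) with an adjusted p of 0.0399, and MTREX, a helicase of the nuclear exosome, was not called at 0.12 (adjusted p = 0.183). With total counts DHX29 was not called, at 0.00 (adjusted p = 0.978), and MTREX was higher, at 0.31 (adjusted p = 0.00107), while the 5 genes from CDC20B to CCNO-DT were higher under both scalings. The rows of the miR-449 precursors themselves held at most 0.0671 CPM in these libraries, which do not measure mature microRNAs.

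Intraflagellar transport and BBSome genes, which build both motile and primary cilia, rose by smaller amounts. Here 24 of 43 members tested rose (55.8%) and 5 fell (11.6%), against 33.7% and 32.6% of all genes tested. The median log2 fold change was 0.25 (34 rose and 2 fell when scaled by total counts). IFT27, a small GTPase of the transport train, rose from 13.9 and 13 to 31.4 and 31.7 CPM (log2 fold change 1.23 ± 0.10), and IFT88 from 20.0 and 23.6 to 38.5 and 37 CPM (log2 fold change 0.78 ± 0.10). TTC30A fell from 13.1 and 15.5 to 6.99 and 7.28 CPM (log2 fold change −1.01 ± 0.11). Tubulins and tubulin-modifying enzymes had more falls than rises with TMM scaling, at a median of 0.01, and more rises than falls with total counts (9 rose and 14 fell of 35 tested, against 18 rose and 10 fell). TUBG1, gamma-tubulin, fell from 139.9 and 133 to 54.2 and 53 CPM (log2 fold change −1.35 ± 0.08), and TUBA1B from 443 and 435 to 195 and 167 CPM (log2 fold change −1.28 ± 0.09). Tubulin genes have near-identical copies, and no option for reads with several matches stands in the file headers, so their values are uncertain.

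**Figure D3:**
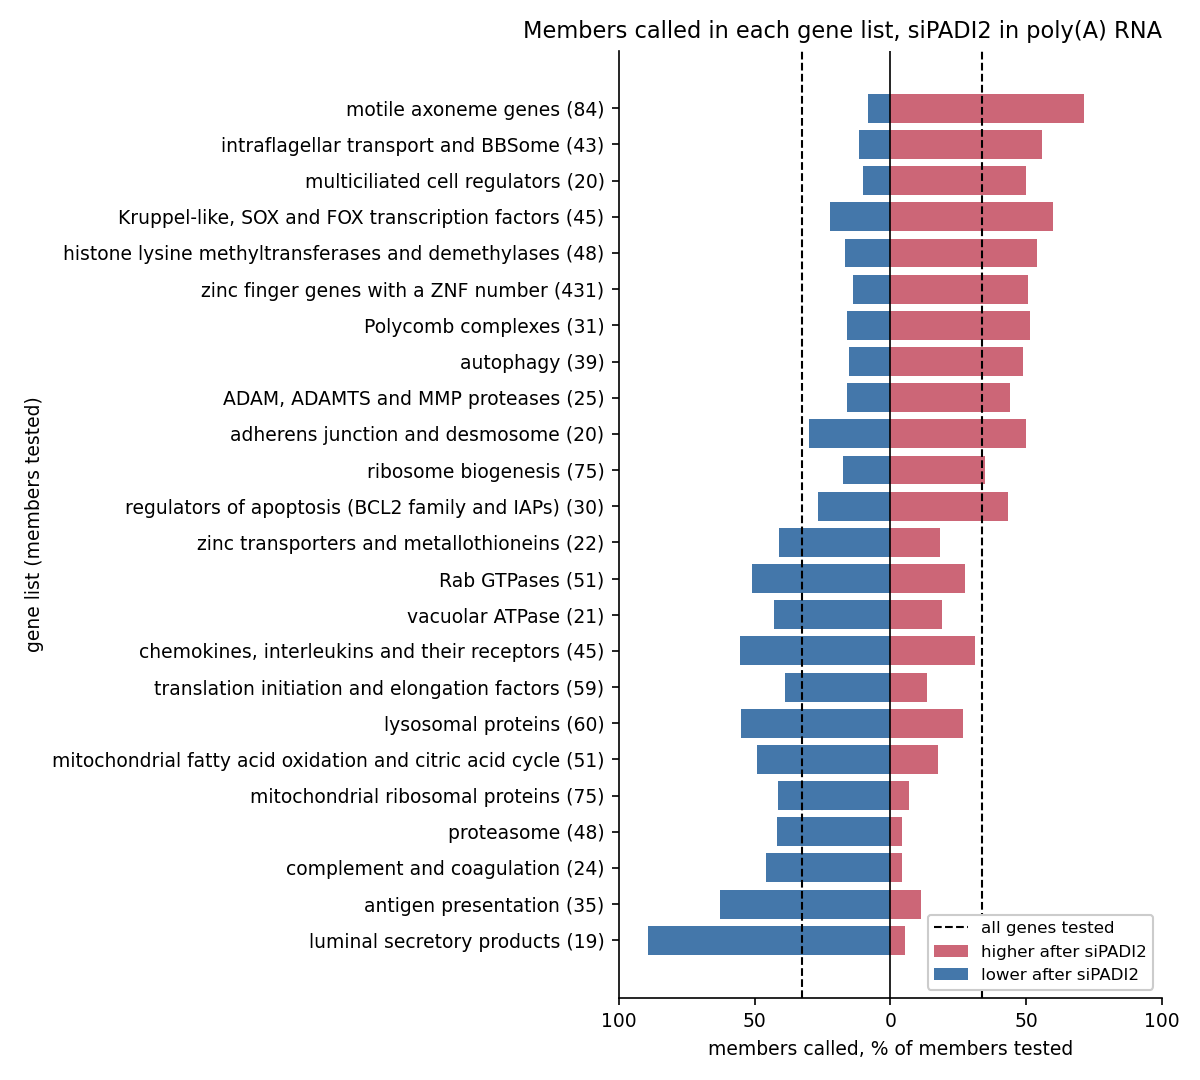
Share of tested members that were higher (right) or lower (left) after siPADI2 in poly(A) RNA, for the 12 lists with the largest excess of higher and the 12 with the largest excess of lower members among lists with at least 15 tested; dashed lines give the shares of all genes tested, 33.7% and 32.6%. Motile axoneme genes head the plot and luminal secretory products stand at its foot.

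Kruppel-like, SOX and FOX transcription factor genes rose more often than they fell. Of 45 members tested 27 rose (60%) and 10 fell (22.2%), against 33.7% and 32.6% of all genes tested. The median log2 fold change was 0.40 (32 rose and 7 fell when scaled by total counts). In chromatin RNA 1 of the 45 was higher and 11 were lower, beside 807 and 3280 of the 13509 genes tested in both fractions. SOX2, a factor of stem and progenitor cells, was at 14.3 and 13.6 CPM in siCtrl and 77.7 and 76.1 CPM in siPADI2 (log2 fold change 2.46 ± 0.09, adjusted p = 6.88e-23), and SP4 rose from 2.12 and 2.33 to 14.2 and 13.5 CPM (log2 fold change 2.62 ± 0.13). SOX2 chromatin RNA was not called, at −0.16 (adjusted p = 0.617). FOXP2 and FOXP4, outside the rule for named genes, rose by 1.82 and 1.68 on the log2 scale. KLF10, an early TGF-beta response gene, fell from 28.2 and 29.1 to 13.5 and 13.5 CPM (log2 fold change −1.09 ± 0.10), and SOX9 from 242 and 239 to 138 and 144 CPM (log2 fold change −0.77 ± 0.08).

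The largest list, zinc finger genes with a ZNF number, leaned the same way with small steps. Of 431 tested 218 rose (50.6%) and 60 fell (13.9%), against 33.7% and 32.6% of all genes, and the median log2 fold change was 0.26, with 34 rises and 7 falls of at least 2-fold. With total counts 281 rose and 40 fell. ZNF680 rose from 8.7 and 10.8 to 34.7 and 38.5 CPM (log2 fold change 1.89 ± 0.11), ZNF267 from 4.00 and 5.62 to 17.1 and 18.8 CPM (log2 fold change 1.86 ± 0.13) and ZNF486 from 3.52 and 3.63 to 12.2 and 12.6 CPM (log2 fold change 1.79 ± 0.12). ZNF275 fell from 12.8 and 10.9 to 2.78 and 2.79 CPM (log2 fold change −2.08 ± 0.13). Many of these genes are close paralogs in clusters, so single members are less certain than the class. The pseudogene ZNF702P also rose, from 2.67 and 3.13 to 15 and 14.6 CPM (log2 fold change 2.33 ± 0.13), while ZNF812P fell from 55.4 and 57.7 to 8.46 and 5.49 CPM (log2 fold change −3.03 ± 0.20). In chromatin RNA 44 of the 431 were higher and 66 lower, beside the 807 and 3280 of 13509 genes tested in both fractions.

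Chromatin regulators rose more often than they fell. For histone lysine methyltransferases and demethylases 26 of 48 members tested rose (54.2%) and 8 fell (16.7%), against 33.7% and 32.6% of all genes tested. The median log2 fold change was 0.22 (33 rose and 5 fell when scaled by total counts). KDM7A, a demethylase of repressive H3 marks, rose from 40.4 and 39.7 to 97.5 and 106 CPM (log2 fold change 1.35 ± 0.08), and DOT1L, the H3K79 methyltransferase, from 28 and 22.1 to 55.7 and 54.4 CPM (log2 fold change 1.15 ± 0.10). KDM4B fell from 193 and 158 to 76.5 and 72.1 CPM (log2 fold change −1.24 ± 0.09). For Polycomb genes 16 of 31 members tested rose (51.6%) and 5 fell (16.1%), with a median log2 fold change of 0.21 (19 rose and 1 fell when scaled by total counts). CBX2, a reader subunit of PRC1, was at 31.5 and 28.9 CPM in siCtrl and 106 and 106 CPM in siPADI2 (log2 fold change 1.82 ± 0.09, adjusted p = 6.14e-20), and KDM2B, which brings a PRC1 variant to CpG islands, rose from 31 and 28 to 80.7 and 76.1 CPM (log2 fold change 1.41 ± 0.09). EZH2, EED and RNF2 were not called, at 0.11, −0.16 and −0.14. The chromatin RNA of CBX2 and DOT1L was lower, at −1.31 (adjusted p = 3.15e-07) and −1.15 (adjusted p = 1.93e-06).

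Other nuclear classes were nearer the background, 33.7% higher and 32.6% lower. Of 23 SWI/SNF genes 9 rose and 7 fell, of 43 acetyltransferases, deacetylases and bromodomain readers 14 and 9, and of 15 DNA methylation and TET genes 4 and 2. KAT6A, a histone acetyltransferase, fell from 205 and 184 to 80.7 and 84 CPM (log2 fold change −1.24 ± 0.08), and the desuccinylase SIRT5 rose from 18.6 and 18.9 to 43 and 45.2 CPM (log2 fold change 1.24 ± 0.09). Mediator (8 rose and 11 fell of 33) and nuclear pore genes (8 rose and 9 fell of 30) tipped from lower to higher with total counts (11 rose and 7 fell, and 13 rose and 6 fell). MED11 rose from 4.55 and 4.81 to 12.9 and 12.7 CPM (log2 fold change 1.44 ± 0.12), and the pore anchor NDC1 fell from 82.7 and 93.4 to 30.7 and 32.5 CPM (log2 fold change −1.48 ± 0.09). Of 13 HOX genes 6 rose and 4 fell, HOXC13 going from 60.0 and 59.9 to 26.8 and 24.9 CPM (log2 fold change −1.21 ± 0.09).

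Most antigen presentation genes fell, and a few rose. In this list 4 of 35 members tested rose (11.4%) and 22 fell (62.9%), against 33.7% and 32.6% of all genes tested. The median log2 fold change was −0.47 (9 rose and 17 fell when scaled by total counts). Of the 32 that passed in both groups 4 rose and 19 fell. MICB, a stress-induced ligand of the NKG2D receptor, was at 123 and 119 CPM in siCtrl and 39.5 and 42.3 CPM in siPADI2 (log2 fold change −1.56 ± 0.08, adjusted p = 1.76e-18). HLA-DMA, a class II peptide exchange factor, fell from 36.9 and 39.4 to 20.3 and 21.5 CPM (log2 fold change −0.87 ± 0.09), and the chaperone CANX from 1612 and 1728 to 979 and 1018 CPM (log2 fold change −0.74 ± 0.09). Those that rose included HLA-B and HLA-C, which encode class I heavy chains, and B2M, their common light chain. HLA-B rose from 1978 and 1814 to 2429.9 and 2464 CPM (log2 fold change 0.37 ± 0.09), and HLA-C and B2M by 0.40 and 0.27. The HLA genes are close paralogs, so reads may be divided unevenly among them. In chromatin RNA HLA-B was not called, at −0.50 (adjusted p = 0.063), and HLA-C was lower, at −0.65 (adjusted p = 0.0177), a call lost with DESeq2 and with total counts.

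Soluble immune factors and their receptors fell more often than they rose. For chemokines, interleukins and receptors 14 of 45 members tested rose (31.1%) and 25 fell (55.6%). The share that rose was close to the 33.7% of all genes tested, of which 32.6% fell. The median log2 fold change was −0.30 (15 rose and 19 fell when scaled by total counts). CXCR4, the receptor of CXCL12, was at 12.1 and 12.5 CPM in siCtrl and 1.43 and 1.35 CPM in siPADI2 (log2 fold change −3.15 ± 0.14, adjusted p = 4.35e-21). CXCL16 fell from 144 and 137 to 38.5 and 40.0 CPM (log2 fold change −1.84 ± 0.08), and IL22RA1 from 12.4 and 12.4 to 2.22 and 3.14 CPM (log2 fold change −2.20 ± 0.14), while CSF1, the macrophage growth factor, rose from 3.64 and 3.74 to 5.42 and 7.09 CPM (log2 fold change 0.76 ± 0.14). For complement and coagulation 1 of 24 members tested rose (4.17%) and 11 fell (45.8%), with a median log2 fold change of −0.25 (3 rose and 7 fell when scaled by total counts). CLU, clusterin, fell from 3622 and 3624 to 1609.7 and 1478 CPM (log2 fold change −1.23 ± 0.09), and C3, the central complement component, from 26.9 and 25.8 to 10.5 and 10.8 CPM (log2 fold change −1.31 ± 0.10).

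Matrix and adhesion genes changed in both directions. Of 45 extracellular matrix genes 15 rose (33.3%) and 13 fell (28.9%), close to the 33.7% and 32.6% of all genes tested. Of the 40 that passed in both groups 12 rose and 12 fell. EFEMP1, a fibulin, fell from 697 and 754 to 139.6 and 139 CPM (log2 fold change −2.38 ± 0.09), whereas COL5A2 rose from 1.98 and 2.29 to 8.58 and 8.71 CPM (log2 fold change 1.99 ± 0.14) and the collagen cross-linking oxidase LOX from 1.64 and 2.05 to 7.02 and 6.94 CPM (log2 fold change 1.88 ± 0.15). Integrin and focal adhesion genes leaned lower with TMM scaling (12 rose and 17 fell of 39) and not with total counts (17 rose and 15 fell). ITGB8, which activates latent TGF-beta, rose from 4.92 and 5.16 to 22.4 and 22 CPM (log2 fold change 2.14 ± 0.11), and FBLIM1, a filamin-binding adaptor, fell from 21.7 and 21 to 7.85 and 8.81 CPM (log2 fold change −1.36 ± 0.11). Desmosome and adherens junction genes included opposite changes: PERP rose from 56.5 and 62.3 to 241 and 220.0 CPM (log2 fold change 1.95 ± 0.09) and DSC2 from 35.3 and 37.7 to 84.6 and 86.1 CPM (log2 fold change 1.22 ± 0.09), while DSP, desmoplakin, fell from 1760.1 and 1606 to 909 and 936 CPM (log2 fold change −0.87 ± 0.09). Among keratins KRT19 fell from 3944 and 3247 to 1128 and 979.5 CPM (log2 fold change −1.77 ± 0.10) and KRT23 from 414 and 423 to 103 and 91.3 CPM (log2 fold change −2.11 ± 0.09), and KRT7 rose from 109.8 and 101 to 191 and 159 CPM (log2 fold change 0.73 ± 0.09). CLDN1 of tight junctions fell from 331 and 388 to 193 and 169 CPM (log2 fold change −0.99 ± 0.09), within a list where 6 rose and 8 fell of 23 (9 rose and 5 fell with total counts). FLNA and EZR, which bind actin, fell from 71.5 and 61.2 to 23.6 and 22 CPM (log2 fold change −1.54 ± 0.09) and from 364 and 333 to 178 and 158 CPM (log2 fold change −1.05 ± 0.09).

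Signalling genes changed in both directions within most pathways, as did genes at large. Of all genes tested 33.7% rose and 32.6% fell, and of growth factor receptors and ligands 36.8% each way. In the BMP and TGF-beta list 13 rose and 14 fell of 40 (19 and 12 with total counts). INHBB, an activin subunit, fell from 183 and 169 to 44.5 and 40.0 CPM (log2 fold change −2.06 ± 0.09), and BMP7 rose from 0.651 and 0.565 to 7.1 and 4.3 CPM (log2 fold change 3.26 ± 0.26), while its chromatin RNA was lower, at −0.77 (adjusted p = 0.00623), a call lost with DESeq2 and with total counts. In the Wnt list 15 rose and 12 fell of 34, FZD4 falling from 184 and 181 to 75.1 and 76.8 CPM (log2 fold change −1.26 ± 0.08) and TCF7L1 rising from 16.4 and 15.2 to 32.7 and 36.2 CPM (log2 fold change 1.13 ± 0.10). In the Notch list 8 rose and 11 fell of 26 (12 and 8 with total counts), NOTCH2 falling from 218 and 193 to 100.3 and 104 CPM (log2 fold change −1.01 ± 0.08). Of growth factor receptors and ligands 14 rose and 14 fell of 38. IGFBP5, a binding protein of insulin-like growth factors, was at 1980.4 and 1819 CPM in siCtrl and 241 and 232 CPM in siPADI2 (log2 fold change −3.01 ± 0.09, adjusted p = 1.95e-25), and its chromatin RNA fell too, at −1.74 (adjusted p = 4.74e-08). ERBB3 fell from 966 and 911 to 382 and 383 CPM (log2 fold change −1.30 ± 0.09), while its relative ERBB4 rose from 15.5 and 18 to 39 and 33.3 CPM (log2 fold change 1.10 ± 0.10). In the Hippo list 12 rose and 14 fell of 30 (14 and 10 with total counts), with WWC3 falling from 460.1 and 423 to 147 and 139.8 CPM (log2 fold change −1.62 ± 0.09) and CCN1, a YAP target, rising from 21.1 and 22.2 to 64.6 and 58.4 CPM.

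Guidance ligands and receptors, named for axon pathfinding and also used by epithelia, rose in 20 and fell in 14 of 44. These shares were 45.5% and 31.8%, against 33.7% and 32.6% of all genes tested. The ephrin receptor gene EPHA4 was at 0.337 and 0.355 CPM in siCtrl and 6.5 and 6.17 CPM in siPADI2 (log2 fold change 4.17 ± 0.20, adjusted p = 3.92e-20), and its chromatin RNA was not called, at 0.01 (adjusted p = 0.987). ROBO2 rose from 9.64 and 8.69 to 34.5 and 29 CPM (log2 fold change 1.80 ± 0.11), and SEMA3C, a secreted semaphorin, fell from 411 and 421 to 162 and 161 CPM (log2 fold change −1.36 ± 0.08). Of 25 ADAM, ADAMTS and MMP genes 11 rose and 4 fell, or 8 and 4 of the 20 that passed in both groups. Of 30 BCL2 family and IAP genes 13 rose and 8 fell, the BH3-only genes PMAIP1 and BIK going from 5.16 and 5.65 to 11.1 and 12.3 CPM (log2 fold change 1.10 ± 0.12) and from 13.1 and 11.8 to 5.87 and 5.41 CPM (log2 fold change −1.14 ± 0.12).

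Lysosomal genes fell more often than they rose, and autophagy genes rose more often. For lysosomal proteins 16 of 60 members tested rose (26.7%) and 33 fell (55%), against 33.7% and 32.6% of all genes tested. The median log2 fold change was −0.31 (22 rose and 26 fell when scaled by total counts). FUCA1, a lysosomal fucosidase, fell from 93.3 and 103 to 41.5 and 42.9 CPM (log2 fold change −1.22 ± 0.08), and LAMP3 from 389.9 and 401 to 150.2 and 212 CPM (log2 fold change −1.13 ± 0.15), while the protease gene CTSC rose from 12.7 and 13.1 to 33.2 and 35.9 CPM (log2 fold change 1.42 ± 0.10). For autophagy 19 of 39 members tested rose (48.7%) and 6 fell (15.4%), with a median log2 fold change of 0.17 (25 rose and 5 fell when scaled by total counts). ULK1, the initiating kinase, was at 95 and 77.6 CPM in siCtrl and 294 and 261 CPM in siPADI2 (log2 fold change 1.69 ± 0.09, adjusted p = 3.22e-15), with lower chromatin RNA at −1.54 (adjusted p = 1.71e-10). TAX1BP1, a cargo receptor, rose from 173 and 190.0 to 344 and 354 CPM (log2 fold change 0.94 ± 0.08), and BECN1, of the lipid kinase complex, fell from 136 and 136 to 58.7 and 62.3 CPM (log2 fold change −1.17 ± 0.08). Of 21 vacuolar ATPase genes 4 rose and 9 fell (6 and 7 with total counts), ATP6AP1 going from 447 and 424 to 211 and 187 CPM (log2 fold change −1.13 ± 0.09). Rab GTPases also fell more often with TMM scaling (14 rose and 26 fell of 51, or 27.45% and 50.98%) and were nearly even with total counts (18 rose and 20 fell). RAB5C of early endosomes fell from 215 and 214 to 61.1 and 56 CPM (log2 fold change −1.87 ± 0.08), and RAB10 from 173 and 201 to 55.1 and 55.9 CPM (log2 fold change −1.75 ± 0.09). Of 37 coat and export genes of the early secretory pathway 15 rose and 14 fell, ARCN1, the delta subunit of COPI, going from 335 and 343 to 81.8 and 80.7 CPM (log2 fold change −2.06 ± 0.08) and the cargo receptor gene LMAN1 from 249.7 and 266 to 80.2 and 86.3 CPM (log2 fold change −1.63 ± 0.08).

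Housekeeping machineries of the cytosol and mitochondria shifted down by small steps that depended on scaling. Of all genes tested 33.7% rose and 32.6% fell, beside 4.17% and 41.7% of proteasome genes and 6.67% and 41.3% of mitochondrial ribosomal protein genes. Proteasome genes (2 rose and 20 fell of 48, median −0.14) were even with total counts (12 rose and 12 fell). So were mitochondrial ribosomal proteins (5 rose and 31 fell of 75, against 17 rose and 17 fell), and none of either list changed 2-fold. Translation factors (8 rose and 23 fell of 59) and genes of fatty acid oxidation and the citric acid cycle (9 rose and 25 fell of 51) had more falls than rises with TMM scaling and more rises than falls with total counts (20 rose and 14 fell, and 19 rose and 15 fell). PSME3, a proteasome activator, fell from 359 and 367 to 177 and 191 CPM (log2 fold change −0.98 ± 0.08), MRPL43 from 90.0 and 81 to 56.3 and 52.2 CPM (log2 fold change −0.65 ± 0.08), EIF3L from 196 and 209.8 to 111 and 108 CPM (log2 fold change −0.89 ± 0.08) and ETFA, an electron carrier of fatty acid oxidation, from 318 and 345 to 159 and 161 CPM (log2 fold change −1.05 ± 0.08). Of 75 ribosome biogenesis genes 26 rose (34.7%), close to the 33.7% of all genes, and 13 fell (17.3%, against 32.6%), with a median of 0.03, NOLC1 rising from 87.9 and 90.2 to 179 and 178 CPM (log2 fold change 1.01 ± 0.08) and NHP2 falling from 59.6 and 54 to 19.3 and 17.4 CPM (log2 fold change −1.63 ± 0.09).

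Transporters and metabolic enzymes held some large single changes without a common direction. Of 206 solute carriers 66 rose (32%) and 78 fell (37.9%), near the 33.7% and 32.6% of all genes tested. The counts turned to 86 and 55 with total counts. SLC29A1, a nucleoside transporter, fell from 94.2 and 89.8 to 9.57 and 11.2 CPM (log2 fold change −3.14 ± 0.10), and the zinc importer SLC39A6 from 146 and 152 to 27 and 27.7 CPM (log2 fold change −2.44 ± 0.09), while SLC1A2, a glutamate transporter, rose from 3.98 and 4.66 to 18.4 and 18.6 CPM (log2 fold change 2.08 ± 0.12). MT2A, a metallothionein, fell from 53.3 and 48.1 to 5.84 and 4.92 CPM (log2 fold change −3.24 ± 0.11). ABCA1, the cholesterol exporter, rose from 10.9 and 10.5 to 40.2 and 48.9 CPM (log2 fold change 2.06 ± 0.11), and ABCA12 from 141 and 136 to 395 and 359 CPM (log2 fold change 1.44 ± 0.08), within a list where 8 rose and 14 fell of 29 (12 rose and 9 fell with total counts). Among ion channels 28 rose and 30 fell of 79 (38 and 27 with total counts), with KCNMA1 falling from 152 and 143 to 40.1 and 36.8 CPM (log2 fold change −1.94 ± 0.09) and KCNE4 rising from 0.578 and 0.508 to 6.23 and 5.6 CPM (log2 fold change 3.48 ± 0.19). HSD17B1, which forms estradiol from estrone, fell from 64.6 and 52.8 to 10.5 and 8.95 CPM (log2 fold change −2.59 ± 0.11). CYP1A1 was called, at 33.8 and 32.5 CPM in siCtrl and 89.4 and 153 CPM in siPADI2, but with an adjusted p of 0.0442 that did not stay under 0.05 without either siCtrl library. Annexin and S100 genes went both ways, ANXA11 falling from 151 and 144 to 43.3 and 42.6 CPM (log2 fold change −1.78 ± 0.08) and ANXA1 rising from 6.07 and 6.54 to 32.4 and 29.2 CPM (log2 fold change 2.28 ± 0.11).

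Of the other lists, the luminal markers fell in 8 and rose in 2 of 14, aminoacyl-tRNA synthetases rose in 11 and fell in 6 of 37, and peroxisome genes rose in 13 and fell in 8 of 35. Of all genes tested 33.7% rose and 32.6% fell. Cytochrome P450 and steroid or retinoid genes rose in 20 and fell in 18 of 46, or 15 and 16 of the 38 that passed in both groups. Some lists leaned lower with TMM scaling and higher with total counts. These were mucin genes (7 rose and 8 fell, against 9 and 6), G protein-coupled receptors (19 and 21, against 21 and 15), zinc and metallothionein genes (4 and 9, against 9 and 7), sphingolipid enzymes (12 and 13, against 14 and 10) and myosins with actin cross-linkers (14 and 16, against 19 and 8).

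Genes of small RNA function and mRNA decay were near the background of all genes tested, 33.7% higher and 32.6% lower. Of 19 small RNA genes 7 rose and 5 fell, and of 49 decay genes 14 and 16 (17 and 10 with total counts). AGO4, an Argonaute protein, rose from 17.7 and 17.2 to 39.4 and 40.9 CPM (log2 fold change 1.20 ± 0.10), and TNRC6A, its silencing partner, fell from 167 and 159.8 to 83.6 and 98.3 CPM (log2 fold change −0.85 ± 0.09). ZFP36L1, which binds AU-rich elements, fell from 411 and 416 to 173 and 204 CPM (log2 fold change −1.13 ± 0.09), and the decapping enhancer EDC3 rose from 79.6 and 79.9 to 189 and 189 CPM (log2 fold change 1.25 ± 0.08). Outside coding genes, 99 of 325 lincRNAs rose and 98 fell, and 105 of 387 antisense transcripts rose and 123 fell. NEAT1, the scaffold of paraspeckles, fell from 443 and 419 to 141 and 181 CPM (log2 fold change −1.42 ± 0.10), while its chromatin RNA was not called, at −0.06 (adjusted p = 0.9). COLCA1 fell from 33.2 and 32.7 to 3.58 and 4.21 CPM (log2 fold change −3.07 ± 0.11). Of 184 unprocessed pseudogenes 75 rose and 27 fell, against 33 and 45 of 162 processed ones, and pseudogene reads cannot be separated with certainty from those of their parent genes.

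Genes that fell 2-fold or more held the 7-base words ATCCACA or TACCATG in their 3′ UTR in 268 of 856 cases (31.3%), beside 741 of 3909 genes not called (18.96%) and 745 of 4107 that rose (18.1%). The words had been picked by a scan of this same comparison, so these shares are a description and no test. With genes divided into 3 bins by 3′ UTR length, the shares of genes lower by 2-fold or more and of genes not called were 11.6% and 5.07% in the shortest bin, 27.6% and 15.7% in the middle bin and 56.6% and 38.8% in the longest. The siRNA sequences were not used here, and the part of such words in the falls was not tested.

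The chromatin RNA libraries gave a second reading of the genes called in poly(A) RNA. Of 4562 genes that rose in poly(A) RNA and were tested in both fractions, 426 were higher (9.34%) and 903 lower (19.8%) in chromatin RNA, with a median chromatin log2 fold change of 0.03. Of 4408 that fell, 156 were higher (3.54%) and 1355 lower (30.7%), with a median of −0.32. Of 4539 not called, 225 were higher (4.96%) and 1022 lower (22.5%), with a median of −0.13. Chromatin calls were thus more often lower than higher in all 3 classes, and higher calls were most frequent among genes that rose in poly(A) RNA. Whether the shallower siPADI2 chromatin libraries had a part in this was not tested. Single genes differed between the fractions, as the plot of both fold changes shows. CDC20B and GPNMB, at 0.81 (adjusted p = 0.000743) in chromatin RNA, were higher in both, while PADI2, TNS4 and IGFBP5 were lower in both.

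**Figure D4:**
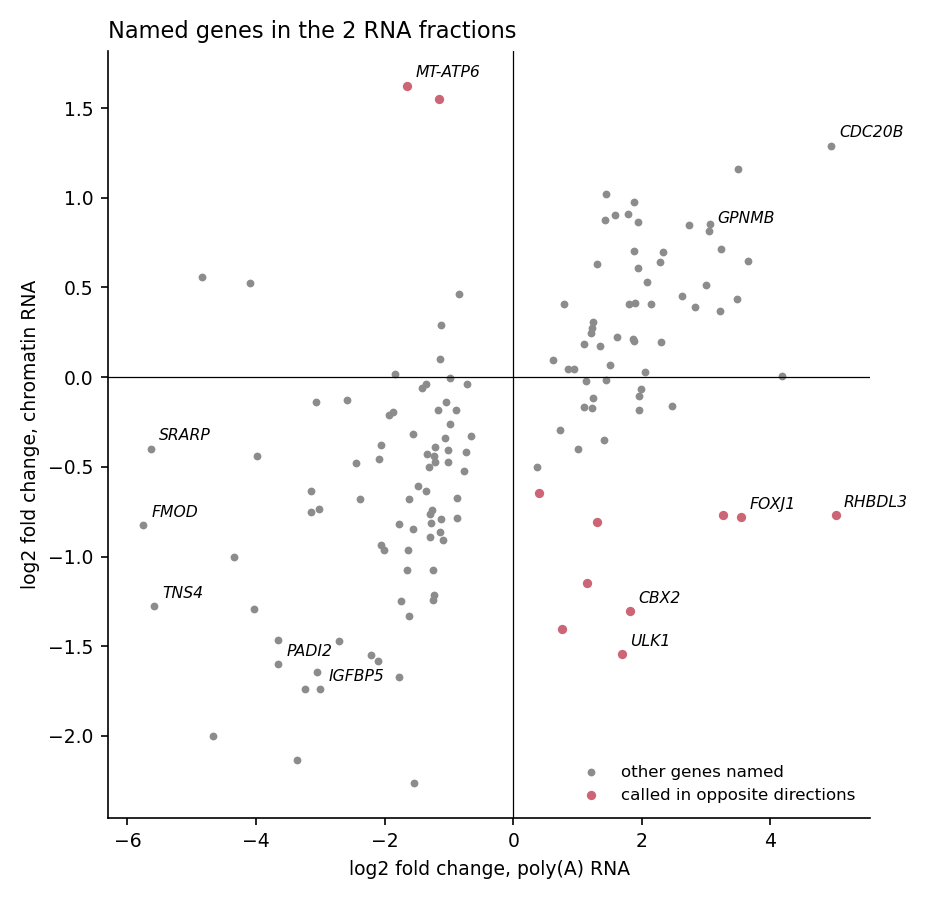
Log2 fold change after siPADI2 in poly(A) RNA (x axis) and in chromatin RNA (y axis) for the genes named in the text that were tested in both; red points were called in opposite directions in the 2 fractions. PADI2, TNS4 and IGFBP5 lie low in both, CDC20B and GPNMB high in both, and RHBDL3, FOXJ1, CBX2 and ULK1 were higher in poly(A) RNA and lower in chromatin RNA.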

How the data were processed

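Gene counts of the 4 poly(A) and 4 chromatin RNA libraries used here were deposited by the authors, not normalized, and were made with featureCounts 1.5.1 for poly(A) and 1.4.6-p2 for chromatin RNA on GENCODE 19 (hg19) with strand option 2, per the file headers. STAR and Trimmomatic are named in the submitters' processing notes, without versions. The poly(A) kit was stranded, per the labels' protocols. Gene names and biotypes came from GENCODE 29.

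Genes with at least 1 CPM in both libraries of a group were tested with edgeR 4.0.16 (R 4.3.3, quasi-likelihood test, TMM scaling, groups only), with Benjamini-Hochberg adjustment over all genes and a threshold of 0.05. Chromatin libraries were fitted apart by the same steps. No test of the difference between fractions was made. On simulated data with 200 changed genes among 13552, 193 were recovered with 5 false calls. Those changes were few and equal in both directions, whereas 4570 and 4421 genes were called here. The simulation therefore gives no error rate for these libraries and no check of the scaling. Depth in poly(A) RNA was 44318629 to 132764704 counts.

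Named genes were PADI2, the 12 largest rises and falls with a mean of at least 10 CPM in the higher group and no overlap between groups, the 8 largest CPM gains and losses, and up to 3 members of each list and noncoding biotype in each direction at a mean of at least 5 CPM. Of these 378 genes, those most useful to a reader are printed. Neighbours of CDC20B, genes not called, and ADIPOQ, AGR3, B2M, CEP152, CFAP126, CLEC3A, DNAH2, DNAH5, DNAH12, FOXN4, FOXP2, FOXP4, PLIN1, PLK4, PTHLH, RFX3, RSPH4A and TEKT1 fall outside the rule and were chosen after their values were seen. Members and lists were chosen with earlier results of these data known. Alternatives were DESeq2 1.42.0, other scalings and filters, a joint fit of 8 poly(A) libraries, a replicate block and leaving out each library. Some results are not reported here.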

Additional observations from a re-analysis of the deposited data

Results flagged for a closer look

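11 of the genes printed above were called in opposite directions in poly(A) and chromatin RNA after siPADI2, with no overlap of the groups in either fraction. The difference between the fractions itself was not tested. Log2 fold changes are given here for poly(A) RNA first and chromatin RNA second. The genes higher in poly(A) RNA and lower in chromatin RNA were RHBDL3 (5.01 and −0.77), FOXJ1 (3.55 and −0.78), BMP7 (3.26 and −0.77), ULK1 (1.69 and −1.54), CBX2 (1.82 and −1.31), DOT1L (1.15 and −1.15), PRMT6 (1.30 and −0.81), HLA-C (0.40 and −0.65) and CSF1 (0.76 and −1.40). The reverse was seen for the mitochondrially encoded MT-CYB (−1.15 and 1.55) and MT-ATP6 (−1.65 and 1.62), whose RNA is not made on nuclear chromatin. The chromatin calls of all these genes were lost when either siCtrl chromatin library was left out, and those of RHBDL3, FOXJ1, BMP7, PRMT6 and HLA-C also with DESeq2 and with total counts.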

How the results depend on the processing

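The counts of genes that rose or fell in poly(A) RNA stayed within 1.5 times the reported 4570 and 4421 under every alternative run. Leaving out 1 library gave 3804 to 4114 rises and 3807 to 4068 falls, with the lone library of a group assumed to vary like the other group. DESeq2 gave 4202 and 4254, no filter 5535 and 4810, and total counts 6386 and 2978. The replicate block gave 4992 rises and 4906 falls and ended no call of a named gene. Deviations of same-numbered libraries from their group means correlated at 0.21. With 2 libraries in a group the deviations mirror each other, so this is 1 value for both numbers. The numbers are not established as pairs. Total-count scaling moved 39 of 118 list counts by over 1.5 times and turned the balance of 20 lists, each given with both counts above. Leaving out 1 library turned the balance of some lists with near-even counts: extracellular matrix and HOX genes (without siCtrl replicate 2), DNA methylation and BMP genes (siCtrl replicate 1), peroxisome genes (siPADI2 replicate 1), and COPI and COPII, P450, sphingolipid, G protein-coupled receptor and myosin genes. Of the genes printed, CYP1A1 lost its call without siCtrl replicate 1 (log2 fold change 1.90) or 2 (1.84). In chromatin RNA, the 147 calls among 378 named genes were all lost when either siCtrl library was left out.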
